A study of Mus musculus with 10 samples.

Results

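The genes described here encode the major histocompatibility complex (MHC) of the mouse and the proteins that load peptides onto it. They were chosen by name: every protein-coding gene of the GENCODE mouse annotation whose symbol begins with H2-, which gave 34 genes, and the 7 genes B2m, Cd74, Ciita, Nlrc5, Tap1, Tap2 and Tapbp, so that the list held 41 genes of the 20720 autosomal protein-coding genes of the annotation. Of the 41 genes, 37 lie on chromosome 17. The cells were whole-cell microglia sorted as CD45+ CD11b+ CX3CR1+ from the brains of wild-type C57/Bl6 mice that carry an intact Sall1 enhancer. The study's methods define sorted microglia as CD45low among CD11b+ CX3CR1+ cells, and give adult male mice, with no treatment. H3K4me3, a histone mark of active promoters, was measured by ChIP-seq in 2 libraries, each with its own peak list and with 12.8 and 13.4 M tags of depth, against 2 input libraries that enter through the authors' peak lists. H3K4me3 PLAC-seq, which reads contacts between DNA regions of which at least 1 carries the mark, was deposited as 1 list of 26689 interactions between bins of 5 kb that combines 2 libraries. Only 1 genotype was measured in these assays, so no condition was compared with another, and nothing in the labels says whether the libraries came from separate animals.

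MHC class I molecules are made of a heavy chain and beta-2 microglobulin (B2m) and show peptides from inside the cell to CD8 T cells. The peptides are cut by the proteasome, carried into the endoplasmic reticulum by the transporter Tap1-Tap2 and loaded with the help of tapasin (Tapbp), and Nlrc5 is the transactivator of the class I promoters. MHC class II molecules are dimers of an alpha and a beta chain (H2-Aa with H2-Ab1, and H2-Ea with H2-Eb1), which travel with the invariant chain Cd74 and exchange its fragment for a peptide with the help of H2-DM, which H2-O restrains. Ciita is the transactivator of class II genes. Microglia in the healthy brain are known for low levels of class II, which rise in inflammation.

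The list was split by these roles. There were 24 class I heavy chain genes (the classical H2-K1 and H2-D1 and the Q, T and M genes), 5 class I pathway genes (B2m, Nlrc5, Tap1, Tap2, Tapbp), 9 class II chain genes and 2 class II pathway genes (Cd74, Ciita). The remaining gene, H2-Ke6, lies within the locus but encodes an enzyme and no MHC chain, and it was counted in the list of 41 but in neither class. H2-Ea is annotated as a pseudogene (H2-Ea-ps) in this reference and was not a member.

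Promoters of both classes are known to carry an SXY module, in which an X box with a cyclic AMP response-like X2 part is followed by a Y box, a reversed CCAAT. RefSeq promoter windows, from 250 bases before to 50 bases after the start (GRCm38.p6), were found for 34 of the 41 genes; those of H2-Q1, H2-T24, Tap2, Nlrc5, H2-Ab1, Ciita and Cd74 were not matched. The 150 bases before the start are shown for 7 genes that differ in class, mark and contacts, with the words CCAAT (Y box) and TGACG or TGATG (X2-type) in capitals on either strand. On the other strand CCAAT is written ATTGG; likewise CGTCA stands for TGACG; likewise CATCA stands for TGATG.
H2-K1 (class I, marked, chr17:34000348-34000497, minus strand): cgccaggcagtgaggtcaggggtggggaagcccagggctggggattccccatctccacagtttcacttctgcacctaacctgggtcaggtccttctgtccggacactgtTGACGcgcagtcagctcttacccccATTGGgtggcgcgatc
H2-Q4 (class I, marked, chr17:35379467-35379616, plus strand): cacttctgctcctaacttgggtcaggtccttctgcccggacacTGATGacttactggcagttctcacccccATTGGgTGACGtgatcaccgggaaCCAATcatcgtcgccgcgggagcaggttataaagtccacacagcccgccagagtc
B2m (class I pathway, marked, chr2:122147537-122147686, plus strand): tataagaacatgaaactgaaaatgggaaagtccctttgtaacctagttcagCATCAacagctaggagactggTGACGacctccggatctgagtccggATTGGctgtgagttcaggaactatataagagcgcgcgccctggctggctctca
H2-M10.5 (class I, no peak, chr17:36772760-36772909, plus strand): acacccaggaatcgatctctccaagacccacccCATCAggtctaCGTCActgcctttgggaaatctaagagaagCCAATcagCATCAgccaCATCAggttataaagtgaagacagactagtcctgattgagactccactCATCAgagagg
H2-Ob (class II, weakly marked, chr17:34238755-34238904, plus strand): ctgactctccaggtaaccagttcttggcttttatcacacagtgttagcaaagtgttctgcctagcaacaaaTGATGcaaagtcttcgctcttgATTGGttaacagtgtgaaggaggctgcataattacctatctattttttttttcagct
H2-Aa (class II, no peak at its start, chr17:34287824-34287973, minus strand): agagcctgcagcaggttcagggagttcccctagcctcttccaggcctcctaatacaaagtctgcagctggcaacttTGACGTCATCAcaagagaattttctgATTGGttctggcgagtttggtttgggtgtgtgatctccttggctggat
H2-Eb1 (class II, no peak at its start, chr17:34305717-34305866, plus strand): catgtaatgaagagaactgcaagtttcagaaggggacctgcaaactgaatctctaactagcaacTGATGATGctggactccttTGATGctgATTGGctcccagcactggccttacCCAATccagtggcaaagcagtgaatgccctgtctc

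CCAAT in either orientation stood in 24 of 27 class I windows (88.9%) and in 8 of 9 class II windows (88.9%), beside 37.4% of all 32851 RefSeq promoter windows of the same length. TGACG or TGATG stood in 24 of 27 class I windows and 7 of 9 class II windows (77.8%), beside 53.1% of all windows. The 2 words overlap where TGATGACG is written, as in H2-D1 and H2-Q7. An X2-type word 20 to 30 bases before ATTGG, both read along the gene, was searched for after the sequences had been seen. It stood in 8 of the 13 windows of marked class I genes, in 0 of the 14 windows of class I genes without a mark, in 6 of 9 class II windows and in 0.624% of all windows. Windows are not genes: the class I windows cover 25 genes and the class II windows 8. H2-K1 has 2 overlapping windows, and both held the pair. H2-M9, which was not marked, also has 2. Apart from those of H2-Q10 and H2-T3, all windows of class I genes without a mark belong to H2-M genes. The split by mark thus largely sets H2-M genes against other class I genes. The windows of H2-DMa do not reach its downstream starts. The spacing was 25 bases in H2-K1 and B2m, 25 and 28 bases in H2-D1, 26 bases in H2-Aa, 22 bases in H2-Ob and 24 and 27 bases in H2-Eb1. The class II windows with this pair included H2-Aa, H2-Eb1 and H2-Eb2, which had no H3K4me3 peak at their starts, so the letters did not separate marked from unmarked class II genes. Other motifs were searched on both strands. GAAANNGAA (a word of the interferon-stimulated element type) stood in 3 of 27 class I and 0 of 9 class II windows, beside 8.56% of all windows. These counts hold for this exact word only, and other forms of the element were not searched. The H2-K1 stretch above holds tttcacttc, which this word does not match in either orientation. GGGNNTTCC (an NF-kappaB type word) stood in 7 of 27 class I and 2 of 9 class II windows, beside 5.82%. GGGANTTCC, which lies within GGGNNTTCC, stood in 2 of 27 and 1 of 9 windows, beside 1.68%. TTCNNNGAA (the gamma-activated site) stood in 2 of 27 and 1 of 9 windows, beside 8.3%, and GAGGAA (a PU.1 type word) in 11 of 27 and 1 of 9 windows, beside 28.3%.

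A gene counted as marked if both replicates had a peak no more than 1 kb from 1 of its transcription start sites (TSS), and its value in a replicate was that of the tallest such peak, in tags per 10 M. In all, 22 of the 41 genes were marked, which is 53.7%, beside 59.4% of all autosomal protein-coding genes. Class I and class II had near-equal shares. In class I, 15 of 29 genes were marked (51.7%), and in class II 6 of 11 were (54.5%). Within class I, 11 of 24 heavy chain genes and 4 of 5 pathway genes were marked. Within class II, 6 of 9 chain genes and 0 of 2 pathway genes were. Input tags at the marked genes, scaled to the ChIP depth, ran from 0.3 to 5.5 in replicate 1 and from 0.3 to 4.2 in replicate 2, and the lowest fold over input was 5.99 at H2-Ob in replicate 1 and 5.24 at H2-Q2 in replicate 2. Of the 12 class I heavy chain genes named H2-M, 1 was marked, and of the other 12 class I heavy chain genes 10 were.

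**Figure D1:**
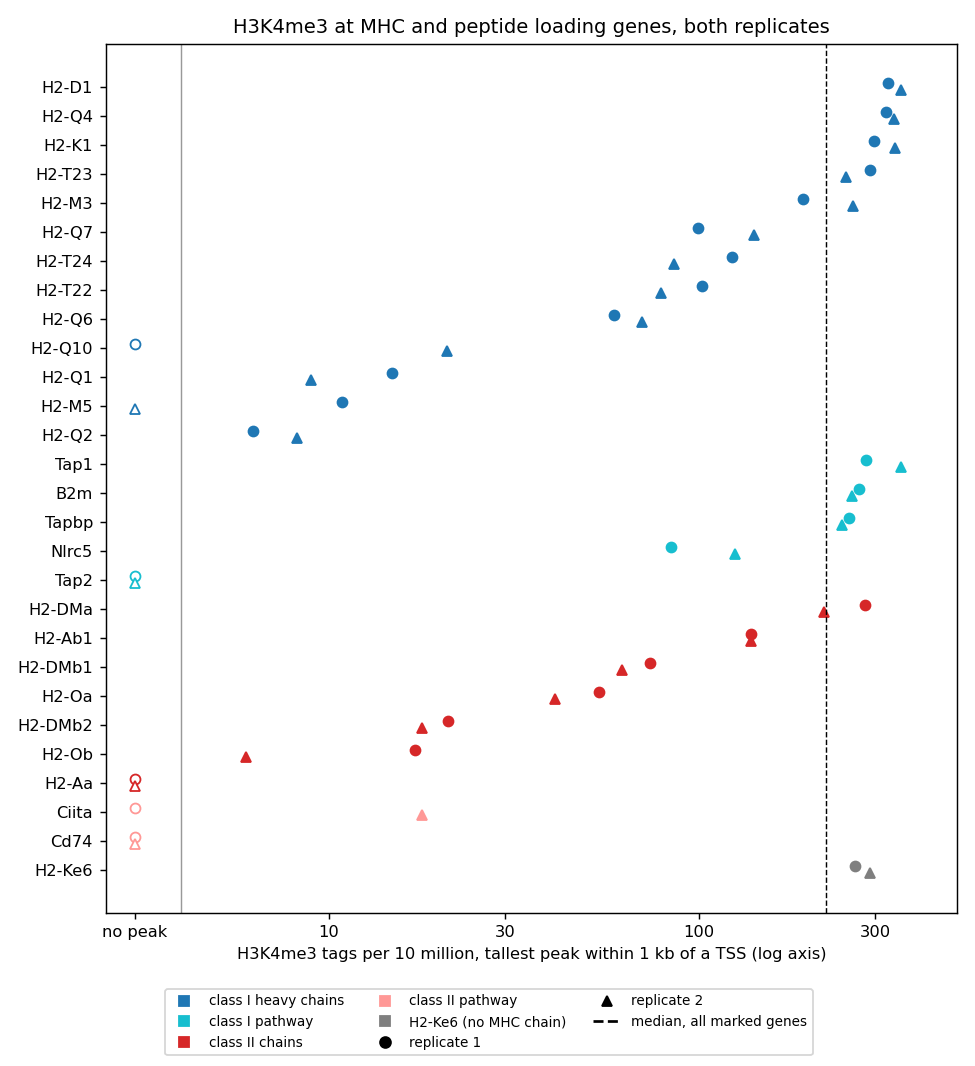
H3K4me3 at the 28 genes with a peak in at least 1 replicate or with an interaction. Each row is a gene, the horizontal log axis gives tags per 10 M of its tallest peak within 1 kb of a TSS, circles are replicate 1 and triangles replicate 2, open symbols at the left stand for no peak, and the dashed line is the median of all marked genes (220.4). H2-D1, H2-Q4, H2-K1, Tap1, H2-T23, B2m, Tapbp and H2-Ke6 lie right of the line in both replicates. No class II gene does, but H2-DMa lies right of it in replicate 1 (281) and just left of it in replicate 2 (219).

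The classical heavy chain genes H2-K1 and H2-D1 stood among the more strongly marked genes of the genome. H2-K1 had 298 and 339 tags per 10 M in replicates 1 and 2, from 382 and 456 tags, and H2-D1 had 325 and 353, from 417 and 475 tags. Their means ranked at the 85.9th and 90.7th percentiles of all marked genes, whose median was 220.4. H2-Q4, a heavy chain gene of the Q group (also known as Qb-1), had 321 and 336 tags per 10 M, as high as the classical genes. H2-T23, which encodes Qa-1, a ligand of NK cell receptors, had 289.8 and 249.9. H2-M3, which presents formylated peptides, was the marked H2-M gene, at 192 and 262. Lower values were found at H2-Q7 (99.7 and 141), which encodes the Qa-2 antigen, H2-T24 (123 and 85.8), H2-T22 (102 and 79.1) and H2-Q6 (59.2 and 70.1). The peak and the start bin of H2-T22 are shared with the gene Gm6034, so neither its value nor its interactions can be given to H2-T22 alone. H2-Q1 (14.8 and 8.95) and H2-Q2 (6.23 and 8.21) were marked by 8 to 19 tags in each replicate and ranked at or under the 2.7th percentile.

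The 2 heavy chain genes with a peak in only 1 replicate were H2-Q10, with 20.9 tags per 10 M in replicate 2, and H2-M5, with 10.9 in replicate 1. H2-T3, H2-M1, H2-M2, H2-M9, H2-M11 and the 6 genes H2-M10.1 to H2-M10.6 had no peak within 1 kb in either replicate. The nearest peaks to the starts of these 11 genes lay 11.0 to 231.9 kb away. Near-identical copies limit how reads are placed among heavy chain genes. Of the 50-base words within 1 kb of a TSS, 42.2% occurred once in the reference chromosomes for H2-Q6, 46.7% for H2-Q7, 53.9% for H2-T23 and 76.0% for H2-T22, so the values of these 4 genes are uncertain. The shares were 88.9% for H2-K1, 96.7% for H2-D1 and 92.4% for H2-Q4, and at least 83.7% for every other gene of the list, the unmarked H2-M genes included.

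Of the class I pathway genes, B2m had 271 and 259 tags per 10 M, Tapbp 254 and 243, and Nlrc5 84.1 and 125. Tap1 had 283 and 353 at a peak centred 397 and 396 bases upstream of its start, which also lies within 1 kb of the start of Psmb9, an immunoproteasome subunit transcribed from the opposite strand, so the peak cannot be given to 1 of these genes alone. A second peak, centred 33 and 115 bases from a Tap1 start, had 238 and 271, and it too lay within 1 kb of the Psmb9 start. Tap2 was not marked by the 1 kb rule, but it lay closest to the threshold of all genes without a call. Its nearest peak began 1027 and 1082 bases downstream of the annotated start, inside an exon of the gene, and had 277 and 298 tags per 10 M. Among the marked genes, the nearest peaks lay farthest from a start at H2-D1, where they began 429 and 435 bases downstream. This distance is from the GENCODE start. The RefSeq start of H2-D1, used for the promoter windows, lies farther downstream and nearer to these peaks.

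In class II, the 2 chains of the I-A molecule differed. H2-Ab1, the I-A beta chain, had 139 tags per 10 M in both replicates, from 178 and 186 tags, centred 39 and 65 bases from a start. H2-Aa, the I-A alpha chain, had no peak at its start in either replicate, and the nearest lay 8.5 kb upstream, outside the gene, with 24.2 and 20.9. H2-Eb1 and H2-Eb2, the beta chains of the I-E family, had no peak at their starts either. A peak of 149.6 and 139.5 tags per 10 M, about as tall as that at the start of H2-Ab1, lay inside H2-Eb1, 3.8 and 3.9 kb downstream of its annotated start and over an exon. Whether it marks an unannotated start was not tested.

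The genes for the peptide exchange factors of class II were marked at low to middle values. H2-DMb1 had 74.0 and 61.9 tags per 10 M and H2-DMb2 had 21.0 and 17.9 (the beta chains of H2-DM). H2-Oa, the alpha chain of H2-O, had 53.8 and 41. H2-Ob, its beta chain, had 17.1 and 5.97, from 22 and 8 tags; the log2 ratio of its replicates was 1.52, where that ratio had an SD of 0.31 over all marked genes, and it ranked at the 2.5th percentile. H2-DMa, the alpha chain of H2-DM, had 281 and 219 by the rule, but these were separate peaks that did not overlap between the replicates, and each lay nearer to a start of Brd2, a bromodomain gene, than to any start of H2-DMa. At the other annotated starts of H2-DMa, about 12.8 kb farther on, the tallest peak had 119 and 148, 37 and 109 bases from a start.

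Neither class II pathway gene was marked. Ciita had no peak within 1 kb of its 5 annotated starts in replicate 1, and in replicate 2 it had 17.9 tags per 10 M, from 24 tags, 36 bases downstream of 1 of its later starts. Cd74 had no peak at its start in either replicate. Its nearest peak lay 28.9 kb upstream in replicate 1, and in replicate 2 in an intron 3.7 kb downstream, with 6.71 tags per 10 M from 9 tags.

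Among marked genes, the class I median was higher than the class II median in both replicates. The class I median over 15 genes was 192 tags per 10 M in replicate 1 and 243 in replicate 2, and the class II median over 6 genes was 63.9 in replicate 1 and 51.4 in replicate 2. The ratio of the medians was 3.00 in replicate 1 and 4.73 in replicate 2. The ranges overlapped: class I means ran from 7.22 to 339 and class II means from 11.5 to 249.9. A mean over 200 was found in 8 of 15 marked class I genes (53.3%), against 1 of 6 marked class II genes (16.7%), which was H2-DMa through peaks near Brd2, beside 57.4% of all marked genes. With heavy chain genes alone, the medians were 123 and 141 for 11 class I genes, against 63.9 and 51.4 for 6 class II genes. The order of the medians turned when unmarked genes were counted as 0 over all members, with 7.22 for class I and 11.5 for class II. With 14 of 29 class I genes and 5 of 11 class II genes at 0, each median fell on the weakest marked gene of its class. These were H2-Q2 (8 and 11 tags) and H2-Ob (22 and 8 tags), so the turned order compares 2 weak calls. No test was made, since genes are not replicates. The median over the 12304 marked genes of all kinds was 220.4, and the medians of replicate means were 227 in class I and 57.7 in class II.

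**Figure D2:**
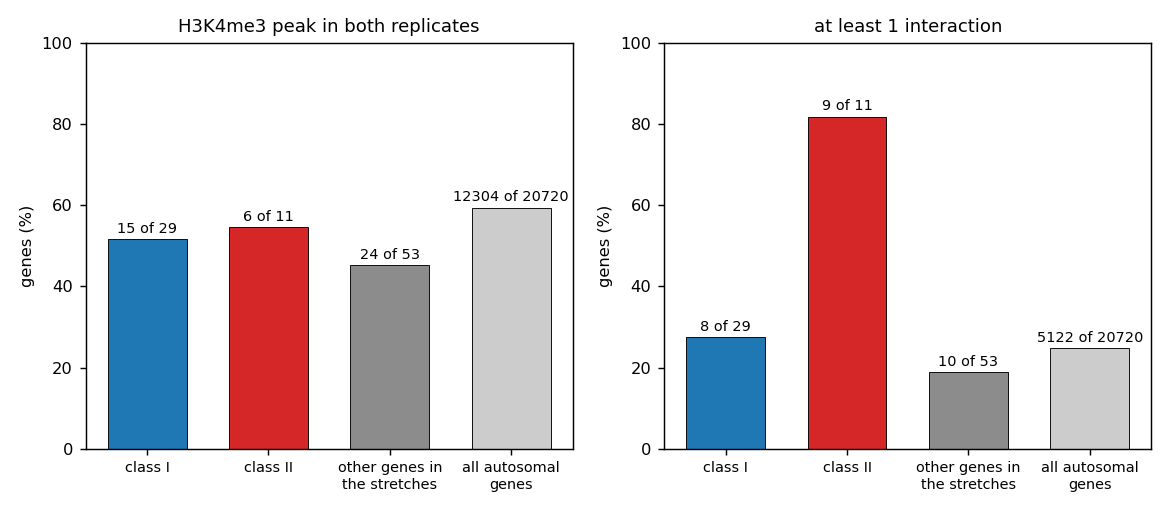
Share of genes marked with H3K4me3 in both replicates (left) and share with at least 1 interaction (right), in percent, for class I genes, class II genes, the other protein-coding genes within the same stretches of chromosome 17 and all autosomal protein-coding genes. Numbers over the bars are genes of genes. The marked shares of the classes are 15 of 29 and 6 of 11, while interactions were found at 8 of 29 class I and 9 of 11 class II genes.

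Contacts were found at a larger share of class II than of class I genes. An interaction was given to a gene when the bin of a TSS was 1 of its anchors. At least 1 interaction was found at 18 of the 41 genes (43.9%), beside 24.7% of all autosomal protein-coding genes. In class I, 8 of 29 genes had an interaction (27.6%), and in class II 9 of 11 had (81.8%). Among marked genes, 7 of 15 class I genes (46.7%) and all 6 class II genes had an interaction, beside 37.8% of all marked genes. Among genes that were not marked, 1 of 14 class I genes (Tap2) and 3 of 5 class II genes (H2-Aa, Cd74 and Ciita) had, beside 5.63% of all such genes. With stricter lists the shares of both classes were smaller and that of class II stayed the larger. With a limit of 0.0001 on the false discovery rate, 6 of 29 class I genes (20.7%) and 5 of 11 class II genes (45.5%) had an interaction, beside 15.8% of all autosomal protein-coding genes. With 1 interaction per cluster of adjoining ones, 4 class I genes (13.8%) and 4 class II genes (36.4%) had, beside 15.7%. In all, 33 interactions in 12 clusters were counted, 19 for class I genes and 15 for class II genes, of which 1 joined the classes and was counted in both.

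**Figure D3:**
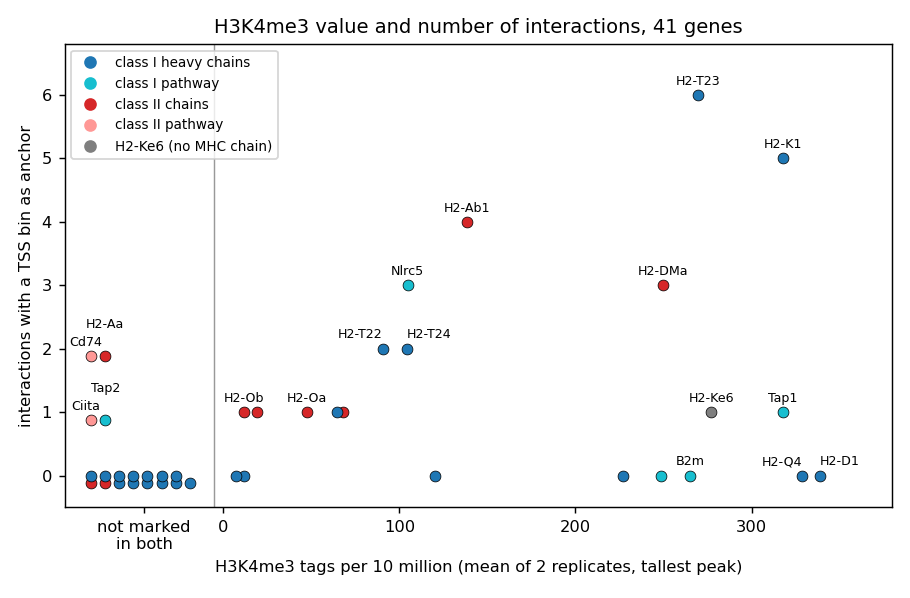
H3K4me3 value (horizontal axis, tags per 10 M, mean of 2 replicates) and number of interactions (vertical axis) of all 41 genes, with genes not marked in both replicates in the strip at the left, where their horizontal and slight vertical spread carries no value. H2-D1 and H2-Q4, with the tallest peaks, had 0 interactions, while H2-Aa, Cd74, Ciita and Tap2, which were not marked, had 1 or 2.

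Strongly marked class I genes were split by contacts. H2-T23 had 6 interactions and H2-K1 had 5, the most of the list. H2-D1, H2-Q4, B2m, Tapbp and H2-M3, with mean values of 227 to 339 tags per 10 M, had 0, as had H2-Q7, H2-Q1 and H2-Q2. The 5 kb bins that hold the starts of H2-D1 and H2-Q4 consist of unique 50-base words at 92.2% and 82.9%, those of B2m, Tapbp and H2-M3 at 98.9%, 100% and 99.2%, and those of H2-K1 and H2-T23 at 87.1% and 59.1%. The part of sequence uniqueness in these counts was not tested.

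**Figure D4:**
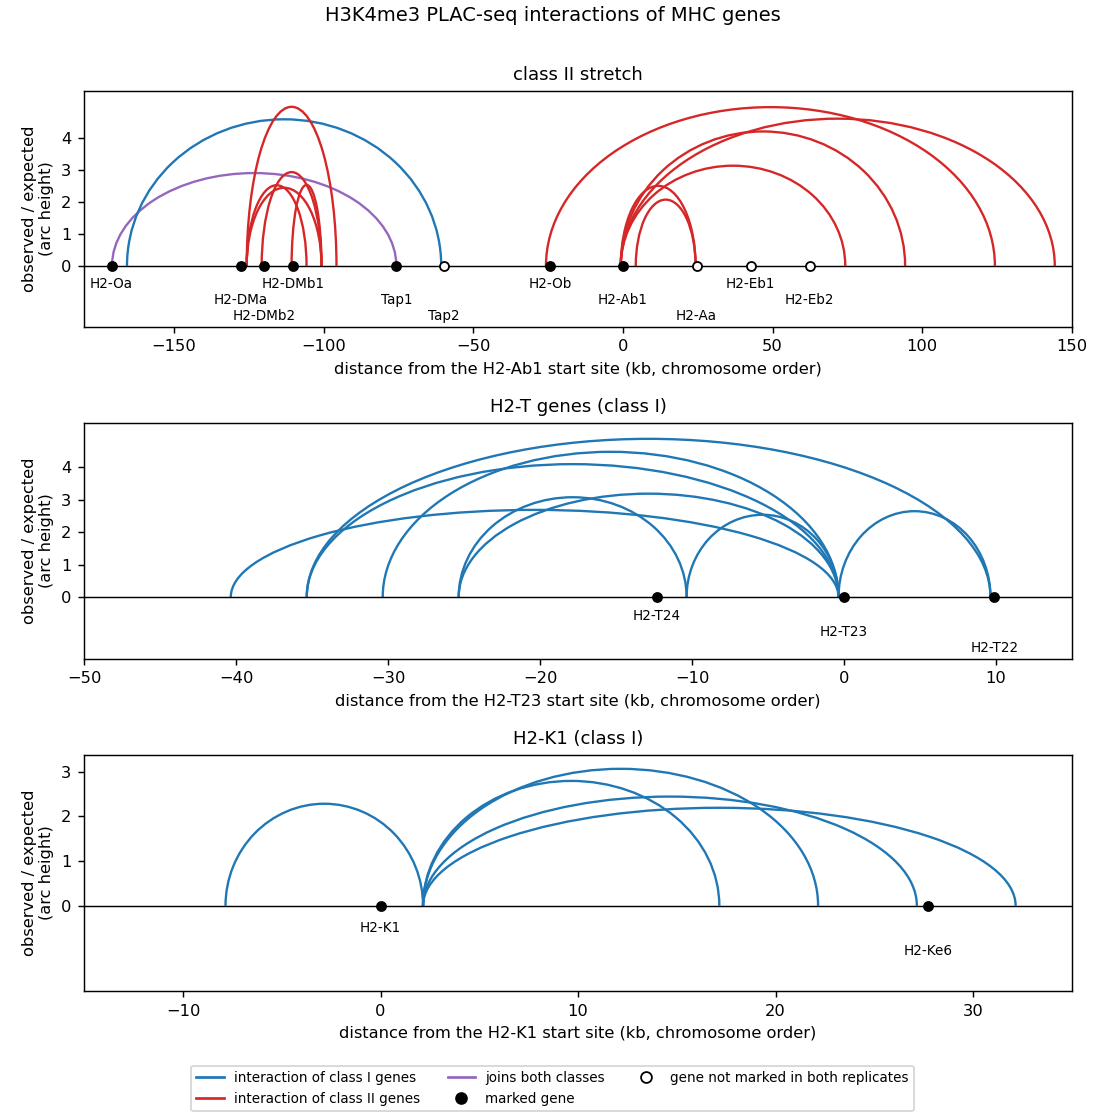
Interactions of the class II stretch, of the H2-T genes and of H2-K1. The horizontal axes give distance in kb from the start of H2-Ab1, H2-T23 and H2-K1, arcs join the centres of 2 bins of 5 kb, arc height is observed over expected read pairs, and dots are gene starts, filled where the gene is marked (for H2-DMa, its most downstream start). The arcs of the H2-DM genes span at most 30 kb, while 1 arc of H2-Ab1 spans 145 kb.

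H2-K1 was joined over 10 to 30 kb. Its strongest interaction by read pairs, 53 against 17.3 expected (ratio 3.06, false discovery rate 1.44e-09), led to the bin with the start of Ring1, a Polycomb E3 ligase gene that itself had 272 and 343 tags per 10 M. Further interactions led to the bin of H2-Ke6 (24 read pairs, ratio 2.44) and to that of Rxrb and Slc39a7 (27, ratio 2.19). H2-Ke6 had 265 and 289 tags per 10 M and this 1 interaction. The other interactions of H2-K1 ended in intergenic bins on either side, with 28 and 19 read pairs.

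The H2-T genes formed a cluster of contacts among themselves and with an intergenic stretch downstream of H2-T23 and past H2-T24, up to 40 kb from the start bin of H2-T23. H2-T23 met H2-T24 in 50 read pairs against 19.7 expected (ratio 2.54, false discovery rate 1.57e-06) and H2-T22 in 22 against 8.30 (ratio 2.65, false discovery rate 2.53e-03). The other 4 interactions of H2-T23 led to bins at 40, 35, 30 and 25 kb on the H2-T24 side, with 18, 35, 37 and 15 read pairs and ratios of 2.69, 4.10, 4.48 and 3.19. The bins at 40 and 35 kb held H3K4me3 peaks of 143 and 144 and of 28.8 and 37.3 tags per 10 M, and no protein-coding start. The bin at 35 kb was also met by H2-T22, at 21 read pairs (ratio 4.88). The second interaction of H2-T24 ended in its own gene 15 kb away (27 read pairs, ratio 3.08). H2-Q6 had 1 interaction, with a bin inside H2-Q7 20 kb away (18 read pairs, ratio 4.49). For H2-T23, H2-T22, H2-Q6 and H2-Q7, the share of unique words in the start bin was 50 to 68.8%, so the places of their reads are uncertain.

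Of the class I pathway genes, Nlrc5 on chromosome 8 had 3 interactions, all with bins 90 to 110 kb upstream. The strongest had 24 read pairs against 4.26 expected (ratio 5.63, false discovery rate 8.64e-09) and ended in an exon-bearing bin of Slc12a3, a sodium chloride cotransporter gene of the kidney. None of the 3 partner bins held an H3K4me3 peak. Tap1 and H2-Oa were joined across 95 kb by 17 read pairs against 5.85 expected (ratio 2.90, false discovery rate 4.64e-03), the 1 interaction shared by the classes. The Tap1 bin also holds the start of Psmb9. Tap2 had 12 read pairs with the next bin of H2-Oa, 105 kb away (ratio 4.58, false discovery rate 1.08e-03), and its own bin held the tall peak downstream of its start.

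H2-Ab1 had the most interactions in class II, with 4. It met the bin of the H2-Aa start, 25 kb away, in 28 read pairs against 11.2 expected (ratio 2.5, false discovery rate 1.54e-03). Its other partners lay at 75 kb in an exon-bearing bin of H2-Eb2 (18 read pairs, ratio 3.13), at 95 kb in Btnl2, a butyrophilin-like gene (18, ratio 4.20), and at 145 kb in an intron of BC051142 (15, ratio 4.6). None of the 4 partner bins held a peak of either replicate. H2-Aa had 2 interactions, that with the H2-Ab1 start and 1 with the next bin of the H2-Ab1 gene (32 read pairs, ratio 2.07, false discovery rate 9.65e-03). H2-Aa was thus contacted by the marked start of its partner chain while it had no mark at its own start. H2-Eb1 and H2-Eb2 had none by the rule. The bin of H2-Eb1 that follows the one with its start and its inner peak, and that held no peak, met an exon-bearing bin of H2-Ob 70 kb away in 15 read pairs (ratio 3.69, false discovery rate 1.42e-03).

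The H2-DM genes were joined over 10 to 30 kb. The downstream starts of H2-DMa met 3 bins within and behind H2-DMb1, at 20, 25 and 30 kb, with 22, 30 and 39 read pairs. The interaction at 30 kb, with an intergenic bin, had the lowest false discovery rate of the list (ratio 4.97, 1.77e-12). H2-DMb2 and H2-DMb1 met the bin of the 3' part of H2-DMb1 that H2-DMa also met, with 30 and 40 read pairs and ratios of 2.93 and 2.53. No peak lay in any of these partner bins. H2-Ob met a bin of Btnl1, another butyrophilin-like gene, over 150 kb in 10 read pairs, the fewest of the list (ratio 4.96, false discovery rate 2.18e-03).

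The class II pathway genes on other chromosomes had interactions without a mark at their starts. The Cd74 bin on chromosome 18 met the bin of the start of Tcof1, a nucleolar gene, 45 kb away in 22 read pairs (ratio 3.87, false discovery rate 1.63e-05), and an exon-bearing bin of Camk2a, a neuronal kinase gene, 175 kb away in 15 read pairs against 2.23 expected (ratio 6.71, false discovery rate 1.64e-06), the highest ratio of the list. The peaks of these interactions stood in the partner bins, at 156 and 214 tags per 10 M for Tcof1 and at 46.7 and 33.6 for Camk2a, and none in the Cd74 bin. Ciita on chromosome 16 met an intergenic bin 35 kb before its later starts in 16 read pairs (ratio 3.92, false discovery rate 3.84e-04). PLAC-seq reads contacts through the mark at either end, and at Cd74 the bin with peaks was that of the partner. At Ciita the partner bin held no peak. The bin of the later Ciita starts held the peak of replicate 2 (17.9 tags per 10 M), and the authors give H3K4me3 for that bin.

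The contacts of both classes were short. The median distance was 30 kb over the 33 interactions of the list, 30 kb for class I and 35 kb for class II, beside 125 kb for all 26689 interactions. Median ratios were 3.08 for class I and 3.13 for class II, beside 4.03 for all interactions. The classes differed in what the partner carried. Both bins held a peak of both replicates in 9 of 19 class I interactions (47.4%), against 1 of 15 class II interactions (6.67%), which was that of H2-Oa with Tap1, beside 9.43% of all interactions. Of the 9 class I interactions, 8 belonged to H2-K1 and the H2-T genes, where interactions share bins, so they are not independent counts. No peak of both replicates lay in either bin of 2 interactions, that of Ciita and that of H2-Aa with the H2-Ab1 gene body. This was so for 4220 of all 26689 interactions. In both cases the authors give H3K4me3 for 1 of the bins, that of the Ciita starts and that of the H2-Ab1 gene body.

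The other protein-coding genes between the members were used as a local comparison. The members on chromosome 17 fell into 3 stretches with gaps of at most 500 kb, with 53 other genes among them. In the stretch with H2-K1 and the class II genes, 10 of 14 members (71.4%) and 12 of 13 other genes (92.3%) were marked. In the stretch of the H2-T and H2-M genes, 4 of 16 members (25%) and 12 of 40 other genes (30%) were. The stretch of H2-D1 and the H2-Q genes, with 6 of 7 members marked, held no other gene. An interaction was found at 15 of the 37 members on chromosome 17 (40.5%), against 10 of the 53 other genes (18.9%). In the stretch with H2-K1 and the class II genes the counts were 11 of 14 members (78.6%) and 5 of 13 other genes (38.5%). In the stretch of the H2-T and H2-M genes they were 3 of 16 members (18.8%) and 5 of 40 other genes (12.5%). Many of these 40 are olfactory receptor genes (Olfr), none of which had an interaction and of which only Olfr94 was marked. The 12 H2-M genes among the members had 0 interactions as well. The part of either family in these shares was not tested. The median value of the 24 marked neighbours was 214 tags per 10 M, close to that of all marked genes.

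Of 33 listed genes of the wider pathway, 32 were matched and all 32 were marked, beside 59.4% of all autosomal protein-coding genes. The 12 regulators included Rfx5 (291 and 253 tags per 10 M), Rfxap (296 and 336) and Rfxank (164 and 174), which bind the X box, and Nfya (339 and 367), Nfyb (171 and 172) and Nfyc (357 and 404), which bind CCAAT. They also included the interferon-pathway factors Irf1 (323 and 329.7) and Irf8 (216 and 177). The 10 class I loading and trimming genes had a median of 257, with Erap1, the peptidase that trims class I peptides, at 364 and 353. The 6 matched class II loading genes had a median of 266, with the invariant chain protease Ctss at 145 and 119. March1, an E3 ligase that removes class II from the surface, had 88.0 and 99.2. The genes that act on class II were thus marked in both replicates while Cd74 and Ciita were not. The 4 MHC-like genes had a median of 106, with Fcgrt lowest at 14.0 and 29.1.

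Markers of the labelled cells were present. All 9 matched microglia markers were marked, with a median of 211 tags per 10 M. Of markers of cells that are rich in class II, 1 of 7 border macrophage genes was marked (Mrc1, 15.6 and 11.9). So were 3 of 7 dendritic cell genes (Flt3 at 27.3 and 12.7, Zbtb46 at 296 and 372, Batf3 at 274 and 241) and 1 of 5 B cell genes (Cd79b, 28.8 and 35.1). In a separate list of monocyte and neutrophil genes, 0 of 6 were marked. Summed over each list, values were 15.6 and 19.4 for border macrophages, 597 and 625 for dendritic cells, 28.8 and 35.1 for B cells, and 0 in both replicates for monocytes and neutrophils. No peak lay at Lyve1, Cd163, Itgax, Xcr1, Ccr7, Cd209a or Ms4a1. The part of other cells in the class II values was not tested.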

How the data were processed

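Peaks of H3K4me3 were deposited by the authors as a list for each library; the submitters' notes name Bowtie2 and HOMER with mm10, with no versions. The deposited signal of a peak is in tags per 10 M, beside its tag count, scaled input tags, fold over input (a ratio, at least 4.09 and 4.00) and p-value against input. For PLAC-seq the authors deposited MAPS interactions of both libraries together at 5 kb, with the read-pair count, expected signal and false discovery rate (an adjusted p-value, at most 0.01) per interaction.

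Genes and starts came from GENCODE vM21 (mm10) protein-coding transcripts, counted by gene identifier; all 41 members are named, with values where a peak or interaction was found. Overlaps and medians were computed with pandas in Python, tested on simulated peaks and, for unique 50-base words, on a planted copy. No columns of unmapped samples were found. The Hi-C libraries were not used here. The members and gene lists were chosen with earlier results of these data known. No test across genes was made: 1 condition was measured, with 2 libraries.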

Additional observations from a re-analysis of the deposited data

How the results depend on the processing

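Of 95 values recomputed under other settings, 75 stayed within 1.5 times (counts) or within the spread of the replicates (medians), and 20 moved. Counts of marked genes stayed within 1.5 times under every alternative run: 500 bp or 2 kb windows, the 5' end only, at least 8-fold over input, overlapping replicate peaks, unique windows, and, chosen after seeing the data, peaks nearest to the gene's own start. With at least 8-fold over input the class II median was 68.0 (main 57.7). Leaving out 1 replicate in turn gave class I medians of 157 to 192 (main 227), class II medians of 41 to 63.9 and log2 ratios of the medians of 1.3 to 2.23 (main 1.98). With unmarked genes as 0 the medians were 7.22 in class I and 11.5 in class II. With class I as H2-K1, H2-D1 and B2m the log2 ratio was 2.46.

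With the false discovery rate held to 0.0001, 11 members had an interaction (main 18), among them 5 class II genes, with 8 class I and 6 class II interactions (main 19 and 15). With at least 20 read pairs, 5 class I genes had one (main 8), with 11 class I and 8 class II interactions. With 1 interaction per cluster, 8 members, 4 class I genes and 4 class II genes had one, with 4 interactions in each class; members whose interaction was not the strongest of its cluster are lost there by construction. With the next bin allowed, class II had 23 interactions. The cause of the other moves was not tested. With the bins as the authors annotate them, also chosen after seeing the data, 15 members had an interaction. No paired analysis was possible because no test was made and the interactions combine both libraries. Depth limits the weakest calls, which rest on 8 to 27 tags at H2-Q1, H2-Q2, H2-Ob and H2-DMb2.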
